A study of Mus musculus with 26 samples.

Results

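Untreated Group3 tumors with the title code mmm (2 arrays) were compared with Group3 neurospheres of the same code (4 arrays), which are 6 of the 26 arrays of a mouse medulloblastoma series. The members were chosen by label alone, from the source name and the letters that open the bracketed code in each title. All 6 arrays carried the genotype Trp53-/-, Cdkn2c-/- Myc and the strain C57BL/6, so the loss of Trp53 and Cdkn2c and the Myc genotype were shared by both groups. The labels called the first group medulloblastoma tumors and the other medulloblastoma cells. They gave no age, time, passage, culture medium or host for these arrays, and did not say what drives Myc or whether tumors were pooled. Nor is it given whether each array stands for an animal or culture of its own, so every p-value measures only the spread between these arrays. Of the other arrays, 8 tumors of code mmm given pemetrexed, gemcitabine or both entered the estimate of spread. In addition, 3 untreated tumors and 3 Group3 neurospheres of code dka, with the same genotype and strain, gave the same comparison on other arrays. The dka comparison and the test between the codes took their spread from all 26 arrays. Those included 3 dka arrays titled Trp53 neurospheres, without the Group3 label, and 3 dka secondary tumors.

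Group 3 medulloblastoma arises in the cerebellum and often carries extra copies or high levels of MYC. Neurospheres are floating clusters of neural or tumor cells, commonly grown in serum-free medium with EGF and FGF, which favours dividing, undifferentiated cells. A piece of tumor also holds vessels, macrophages, blood and the neural tissue around it, and RNA from the whole piece reads all of these cells together.

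The 6 arrays did not spread alike. The tumors correlated at r = 0.991 over all probe sets and differed by more than 1 log2 unit in 432 of 17097 genes. The neurosphere pairs correlated at 0.927 to 0.975 and differed that much in 1246 to 2668 genes. Neurosphere 4 ran from 2.64 to 13.73 on the log2 scale, while the other 5 arrays reached from -0.091 to 16.11. The mean of neurospheres 1 to 3 matched the mean of the 3 dka neurospheres with an SD of 0.13 over probe sets, although each of the 3 alone differed from that mean by an SD of 0.38 to 0.55. The means of the mmm and dka tumors differed by an SD of 0.87. In tumors 1 and 2, 49 and 53 genes lay under 2.56, the lowest value of any gene on the dka arrays. In neurospheres 1 to 4 the counts were 11, 17, 64 and 0. No source used here names a step after RMA that draws group means together, such as a batch adjustment, and whether the deposited values passed through one is not known. If they did, the levels, their spread, the p-values and the comparison of the codes would all carry its effect. Many of the low levels given here lie under the array medians of 4.65 to 4.81, where arrays lose resolution, so the sizes of those differences are uncertain.

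Tumors and neurospheres differed in a large part of the measured genes. With limma and Benjamini-Hochberg adjustment at 0.05, 3338 of 17097 genes passed (19.5%). Of these, 1499 were higher in tumors (8.77% of the genes tested) and 1839 were lower (10.8%), and 1112 and 1008 of them differed more than 2-fold. The median difference over all genes was -0.046 on the log2 scale. The counts rested on both tumors: without tumor 1 limma called 1067 genes and without tumor 2 it called 1122, of which 1038 and 1091 were among the 3338. A fit without 1 tumor assumes that the lone tumor varies as the arrays of the other groups do. Such fits called fewer genes in total, and list counts from them have to be read beside those smaller totals. The fit with all arrays also assumes an equal spread in every group. Yet the median SD over genes was 0.27 among neurospheres and 0.093 between tumors. Bringing all arrays to a common interquartile range left 3287 calls, but moved the median of all genes to -0.29 and the share of calls that were higher from 44.9% to 33.4%. Weighting arrays by their quality raised the count to 5469, and a test against a 2-fold difference called 163 genes higher and 87 lower. With only the 6 arrays in the fit, 7.59% of genes were higher and 6.59% lower, and without neurosphere 4 the shares were 6.71% and 9.27%. Both tumors lay above all neurospheres in 19.6% of genes and under all of them in 23.8%, so a lack of overlap alone was common.

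**Figure D1:**
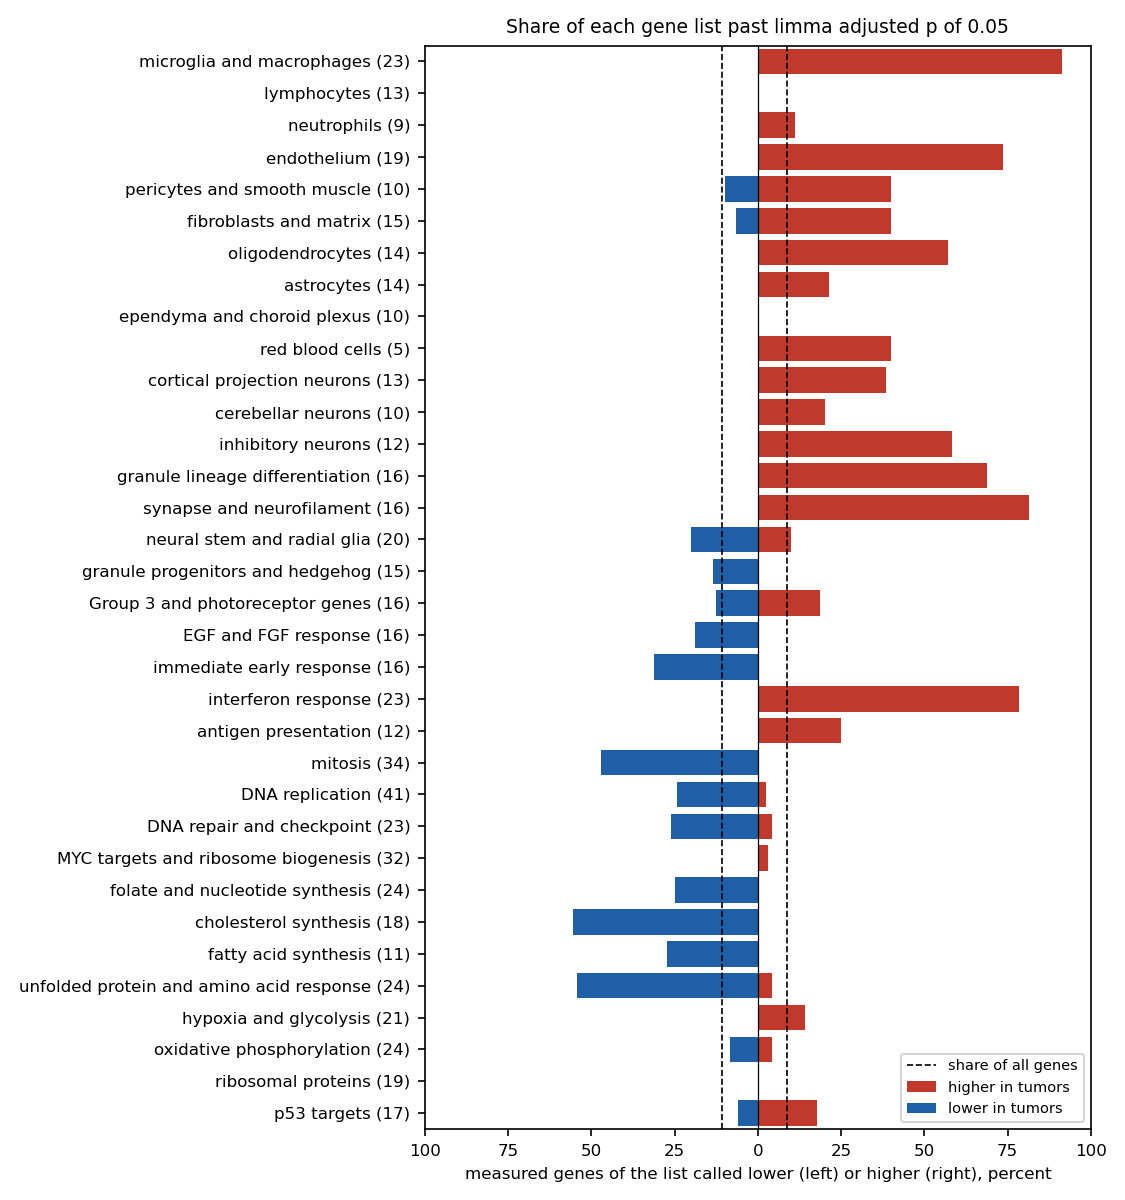
Percent of the measured genes of each of 34 lists that passed limma adjusted p of 0.05, with the genes higher in tumors drawn to one side and those lower to the other, beside the shares of all genes, 8.77% and 10.8%. Microglia and macrophage markers reach 21 of 23 on the higher side, and mitosis genes 16 of 34 on the lower side.

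Genotype genes come first. Myc, the transcription factor, read 8.53 and 8.71 in the tumors and 8.43, 9.22, 7.37 and 7.52 in the neurospheres. The groups overlapped, with a difference of 0.49 (SE 0.49, limma adjusted p = 0.535). Mycn, its paralog, read 15.12 and 15.22 in the tumors and 14.34, 14.91, 14.12 and 12.74 in the neurospheres. Both tumors lay above all neurospheres, and the difference of 1.14 (SE 0.43) missed the threshold with an adjusted p of 0.0847. It passed without neurosphere 2 (1.44, adjusted p = 0.0226) or neurosphere 4 (0.72, adjusted p = 0.0379). The level of Mycn depended on the probe set. Its dimmer probe sets averaged 5.84 and 3.93 in tumors and 4.61 and 3.68 in neurospheres, with differences of 1.24 and 0.26. Cdkn2c, the CDK inhibitor gene deleted in this genotype, read 4.05 and 4.22 in tumors and 3.40 to 3.65 in neurospheres, all under the array medians. Its difference of 0.63 (SE 0.20) was called at an adjusted p of 0.0474, but not without tumor 1 (0.15), tumor 2 (0.278), neurosphere 1 (0.0733), neurosphere 3 (0.0868) or neurosphere 4 (0.0755). Throughout, a value in brackets after a call that was lost is the limma adjusted p of the fit without that array. Whether its probes lie in the deleted sequence was not examined, so it does not check the genotype.

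Macrophage and microglia genes, which mark the resident and incoming phagocytes of the brain, gave the most complete shift of the 34 lists examined. Of 23 measured markers 21 rose in tumors and 0 fell, with a median difference of 3.52 on the log2 scale against -0.046 over all genes. The list averaged 7.31 and 7.52 in the tumors and 3.77 to 4.10 in the neurospheres. In bulk RNA, fewer cells of a type and less RNA per cell cannot be told apart. C1qa, a chain of the first complement component, read 9.70 and 9.52 in the tumors and 3.33, 3.71, 3.50 and 3.59 in the neurospheres (6.08, SE 0.41, limma adjusted p = 1.8e-05). Tyrobp, a signalling adaptor of myeloid receptors, read 9.36 and 9.46 against 3.30, 3.67, 3.60 and 3.54 (5.88, SE 0.34, adjusted p = 7.98e-06). Ctss, a lysosomal protease, read 10.57 and 10.56 against 4.46, 3.51, 3.67 and 3.32 (6.83, SE 0.43, adjusted p = 1.37e-05). Both tumors were high and all neurospheres low in these genes, with no overlap. Lyz2, the lysozyme of macrophages, read 8.88 and 10.08 against 3.04 to 3.77 (6.15, SE 0.45, adjusted p = 2.35e-05), and Ly86, a partner of a Toll-like receptor relative, 9.97 and 9.73 against 3.18 to 3.73 (6.42, SE 0.45, adjusted p = 1.98e-05).

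Genes typical of resident microglia rose as well. P2ry12, a nucleotide receptor, read 6.61 and 6.76 in tumors and 3.51, 2.95, 3.17 and 3.03 in neurospheres (3.52, SE 0.63, limma adjusted p = 0.00343). Tmem119, a membrane protein, read 5.78 and 5.86 against 4.15, 3.61, 3.80 and 4.10 (1.91, SE 0.42, adjusted p = 0.00983), and its call was lost without tumor 1 (0.0739) or tumor 2 (0.083). Neither gene overlapped between the groups. Cd53, a leukocyte membrane protein, rose by 4.82 (SE 0.33, adjusted p = 1.97e-05), although another, dimmer probe set gave 0.13. The 2 markers that did not pass were Mrc1, a mannose receptor of perivascular macrophages (4.99 and 6.35 against 3.24 to 4.23, adjusted p = 0.0584), and Spi1, a myeloid transcription factor (3.41 to 4.09 over all 6 arrays, adjusted p = 0.361). The limma fits called 15 of the markers without tumor 1 and 16 without tumor 2.

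Blood cell genes other than these moved only in part. Hba-a1, an alpha globin gene, read 12.50 and 12.42 in tumors and 4.81, 4.82, 4.66 and 4.65 in neurospheres (7.73, SE 0.38, limma adjusted p = 3.45e-06). Hbb-b2, a beta globin gene, read 12.37 and 12.68 against 5.56, 4.79, 5.14 and 4.85 (7.44, SE 0.40, adjusted p = 5.03e-06), though its dimmer probe sets gave differences of 0.38 and 0.40. They were the 2 of 5 red cell genes that rose, and globin genes have near-identical copies, so which copy was read is uncertain. Of 13 lymphocyte genes limma called 0 (1 at an unadjusted p under 0.05; median 0.097), and the list averaged 3.82 and 3.82 in the tumors and 3.71 to 3.87 in the neurospheres. The widest differences among them were -0.45 for Il2rb, an interleukin receptor chain (adjusted p = 0.0582), which passed without neurosphere 1 (0.0457) or 2 (0.0306), and 0.26 for Gzma, a granzyme (adjusted p = 0.2). Of 9 neutrophil genes (median 0.12) Csf3r, the receptor of G-CSF, was the one that rose (4.67 and 4.54 against 3.97 to 4.33, adjusted p = 0.0358). Its call was lost without tumor 1 (0.238), tumor 2 (0.129), neurosphere 2 (0.0604), neurosphere 3 (0.0699) or neurosphere 4 (0.0716).

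Vessel genes rose together with the macrophage genes. Of 19 endothelial markers 14 rose and 0 fell (median 1.49), and the list averaged 6.36 and 6.55 in tumors and 4.89 to 4.98 in neurospheres. Cldn5, a tight junction protein of brain endothelium, read 7.10 and 7.37 against 3.87, 4.01, 4.16 and 4.31 (3.15, SE 0.35, limma adjusted p = 0.000267). Ly6c1, a surface protein of brain endothelium, read 8.30 and 8.45 against 4.22, 4.82, 4.82 and 5.02 (3.65, SE 0.44, adjusted p = 0.000432). No array of one group reached the other in either gene. Kdr and Flt1, the receptors of VEGF, rose by 2.13 (SE 0.21, adjusted p = 0.000135) and 1.90 (SE 0.22, adjusted p = 0.000335). Esam, an endothelial adhesion molecule, rose by 1.91 (SE 0.21, adjusted p = 0.000243). Leaving out tumor 1 or tumor 2 gave 11 and 10 calls.

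The mural cells around vessels differed gene by gene. Of 10 pericyte and smooth muscle genes 4 rose and 1 fell (median 0.31), and 3 were called, all higher, with either tumor left out. Rgs5, a regulator of G protein signalling in pericytes, read 9.59 and 9.68 in tumors and 3.18, 3.61, 4.14 and 4.25 in neurospheres (5.84, SE 0.32, limma adjusted p = 5.03e-06). Vtn, vitronectin, read 8.24 and 9.20 against 5.22, 3.93, 4.002 and 3.57 (4.54, SE 0.58, adjusted p = 0.000572). Acta2, smooth muscle actin, read 7.78 and 8.70 against 5.10, 5.14, 4.80 and 4.86 (3.26, SE 0.42, adjusted p = 0.000586), while its dimmer probe set gave 0.057. In all 3 the tumors lay above every neurosphere. Kcnj8, a pericyte potassium channel, rose by 0.88 (adjusted p = 0.0429), and that call was lost without tumor 1 (0.165), tumor 2 (0.23), neurosphere 1 (0.067), neurosphere 3 (0.063) or neurosphere 4 (0.0739). Myh11, smooth muscle myosin, lay at 3.36 to 3.99 on all arrays and was called lower (-0.45, SE 0.14, adjusted p = 0.0441). That call was lost without tumor 1 (0.143), tumor 2 (0.274), neurosphere 1 (0.07), neurosphere 3 (0.0848) or neurosphere 4 (0.0804), and its other probe set had the opposite sign.

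Matrix genes of connective tissue rose in 6 of 15 and fell in 1 (median 1.54). Dcn, the proteoglycan decorin, read 7.70 and 9.43 in tumors and 4.02, 3.77, 3.86 and 3.14 in neurospheres (4.87, SE 0.60, limma adjusted p = 0.000451). Mgp, matrix Gla protein, read 11.14 and 12.14 against 6.03, 8.53, 6.997 and 4.66 (5.09, SE 0.80, adjusted p = 0.0017). Tumor 2 was above tumor 1 in both genes, and both tumors were above all neurospheres. Col3a1, a fibrillar collagen, read 10.25 and 11.49 against 5.70, 8.33, 5.42 and 3.84 (5.04, SE 1.11, adjusted p = 0.00985), with neurosphere 2 the highest of the cultures, and its call was lost without tumor 1 (0.0507) or tumor 2 (0.107). The member that fell was Fbln1, the glycoprotein fibulin 1, at 6.24 and 6.78 in tumors and 8.55, 8.93, 8.53 and 9.08 in neurospheres (-2.26, SE 0.32, adjusted p = 0.000975). With either tumor left out 3 of the list were called higher, and without neurosphere 1 the median was 0.78.

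Myelin genes were high in the tumors, and more so in tumor 1. Of 14 oligodendrocyte genes 8 rose and 0 fell (median 2.46), and the list averaged 8.998 and 7.51 in tumors 1 and 2 and 4.45 to 6.06 in neurospheres. Mbp, myelin basic protein, read 12.64 and 11.33 in tumors and 4.17, 4.83, 5.31 and 4.97 in neurospheres (7.16, SE 0.91, limma adjusted p = 0.000547). Mal, a membrane protein of myelin, read 10.55 and 8.93 against 3.58, 4.16, 3.78 and 3.30 (6.04, SE 1.26, adjusted p = 0.00754). Mobp, a protein of compact myelin, read 9.06 and 7.06 against 3.12, 3.34, 3.65 and 3.82 (4.58, SE 1.08, adjusted p = 0.0137). Tumor 1 was the higher tumor in all 3, and no neurosphere reached either tumor. The glycoproteins Mag (7.93 and 6.36 against 3.89 to 4.40, adjusted p = 0.0188) and Mog (6.76 and 4.91 against 2.98 to 3.36, adjusted p = 0.0189) kept that order. Without tumor 1 limma called 1 of the list, with adjusted p-values of 0.0924 for Mal, 0.161 for Mobp, 0.21 for Mag and 0.239 for Mog. It called 5 without neurosphere 4.

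Astrocyte genes rose in 3 of 14 and fell in 0 (median 1.34). Gfap, the intermediate filament of astrocytes, read 9.01 and 8.62 in tumors and 3.94, 3.89, 4.15 and 3.73 in neurospheres (4.89, SE 1.19, limma adjusted p = 0.0157). Gjb6, a gap junction protein, read 7.74 and 8.04 against 3.80, 3.46, 3.83 and 3.53 (4.24, SE 0.98, adjusted p = 0.0127). The groups were far apart in both, but each call was lost with either tumor left out: Gfap without tumor 1 (0.119) or tumor 2 (0.0938), and Gjb6 without tumor 1 (0.0821) or tumor 2 (0.1). Aqp4, the water channel of astrocyte endfeet, read 10.11 and 9.47 against 3.15, 3.09, 7.33 and 7.32 (4.57, SE 1.45, adjusted p = 0.0476), and its call was lost without tumor 1 (0.243), tumor 2 (0.173), neurosphere 1 (0.084) or neurosphere 2 (0.0875). For Aqp4 neurospheres 3 and 4 lay about 4 log2 units above neurospheres 1 and 2. So 0 astrocyte genes were called with either tumor left out, and the median was 0.47 without neurosphere 1. Of 10 ependyma and choroid plexus genes limma called 0 (0 at an unadjusted p under 0.05; median 0.28). Ttr, the transthyretin of choroid plexus, was at 5.13 and 8.18 in the tumors and 3.58 to 3.97 in the neurospheres (adjusted p = 0.189), and Clic6, a chloride channel protein, at 4.18 and 4.61 and 3.49 to 3.91 (adjusted p = 0.398).

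Neuronal genes gave many of the other large rises. Of 16 genes of granule neuron differentiation, the lineage of most cerebellar neurons, 11 rose and 0 fell (median 3.83). Of 16 synapse and neurofilament genes 13 rose and 0 fell (median 4.05). Snap25, a vesicle fusion protein of nerve terminals, read 13.23 and 12.89 in tumors and 5.33, 7.33, 4.92 and 3.78 in neurospheres (7.72, SE 1.26, limma adjusted p = 0.00214). Gap43, a growth cone protein, read 12.02 and 11.82 against 4.94, 6.41, 4.96 and 3.98 (6.85, SE 0.59, adjusted p = 6.61e-05). Rbfox3, which encodes the neuronal nuclear antigen NeuN, read 11.60 and 11.76 against 4.99, 7.09, 4.60 and 3.35 (6.68, SE 0.74, adjusted p = 0.000267). Neurosphere 2 was the highest and neurosphere 4 the lowest culture in these genes, and both tumors lay more than 4 log2 units above neurosphere 2. Tubb3, neuronal tubulin, read 10.05 and 10.12 against 4.26, 6.80, 6.18 and 6.76 (4.08, SE 0.62, adjusted p = 0.00148). Without tumor 1 or tumor 2, 6 and 7 granule genes and 4 and 6 synapse genes were called.

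Genes of young and of mature neurons were both higher in tumors. Nhlh1, a transcription factor of newly formed neurons, read 6.67 and 6.55 in tumors and 3.95, 4.86, 3.56 and 4.25 in neurospheres (2.45, SE 0.33, limma adjusted p = 0.00082). Cntn2, an axonal adhesion protein of young granule neurons, rose by 3.68 (SE 0.57, adjusted p = 0.00156). Among genes of nerve terminals, Cplx1, a complexin, rose by 4.88 (SE 0.60, adjusted p = 0.000451) and Syp, synaptophysin, by 3.60 (SE 0.50, adjusted p = 0.000869). The dimmer probe set of Syp gave 0.11. Sv2b, a vesicle glycoprotein, rose by 4.77 (SE 0.71, adjusted p = 0.00131). Stmn3, a microtubule regulator of neurons, read 14.73 and 14.43 against 6.81, 10.16, 9.75 and 6.83 (6.19, SE 1.14, adjusted p = 0.00419), so neurospheres 2 and 3 already stood about 3 log2 units above the others. Eno2, the neuronal enolase, read 11.68 and 10.99 against 5.75, 6.07, 5.56 and 3.54 (6.11, SE 0.88, adjusted p = 0.00109).

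Genes typical of neurons outside the granule lineage were read in these tumors too. Of 13 genes of cortical projection neurons 5 rose and 0 fell (median 1.79), and 3 were called with either tumor left out. Lamp5, a membrane protein of forebrain neurons, read 8.34 and 8.44 in tumors and 4.61, 4.82, 4.39 and 4.32 in neurospheres (3.86, SE 0.43, limma adjusted p = 0.000266). Bcl11b, a factor of deep-layer cortical neurons, read 8.53 and 9.01 against 4.74, 5.82, 5.60 and 5.87 (3.26, SE 0.38, adjusted p = 0.000335). Tbr1, another deep-layer factor, was low everywhere but did not overlap, at 4.94 and 4.999 against 3.73, 3.27, 3.22 and 3.34 (1.58, SE 0.21, adjusted p = 0.000752). Of 10 genes of other cerebellar neurons 2 rose (median 0.74): Eomes, a factor of unipolar brush cells that is also on the Group 3 list, read 8.52 and 7.62 against 3.95, 5.01, 4.17 and 3.75 (3.85, SE 0.46, adjusted p = 0.000408), and Calb1, the calbindin of Purkinje cells, 8.83 and 10.32 against 3.94, 4.01, 3.97 and 3.26 (5.78, SE 1.37, adjusted p = 0.0136). The call of Calb1 was lost without tumor 1 (0.0626) or tumor 2 (0.133). That list gave 1 call without tumor 1 and 3 without tumor 2, the latter with members not called with all arrays. Vsnl1, a neuronal calcium sensor, rose by 6.18 (SE 1.25, adjusted p = 0.00656), which was lost without tumor 1 (0.0776). Fam107a, an actin-binding protein of neurons and astrocytes, read 9.84 and 10.33 against 3.20, 3.74, 3.31 and 3.07 (6.75, SE 1.07, adjusted p = 0.00176).

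Inhibitory neuron genes rose in 7 of 12 and fell in 0 (median 2.05), and 1 was called with either tumor left out. Gad2, a GABA-making enzyme, read 5.93 and 4.92 in tumors and 3.51, 3.55, 3.44 and 3.15 in neurospheres (2.02, SE 0.42, limma adjusted p = 0.00773), and its call was lost without tumor 1 (0.115). Dlx1, a factor of forebrain interneurons, read 7.06 and 7.23 against 6.33, 3.19, 3.74 and 4.46 (2.72, SE 0.64, adjusted p = 0.0136), and its call was lost without tumor 1 (0.0874) or tumor 2 (0.104). In Dlx1 neurosphere 1 lay within 1 log2 unit of the tumors and the other neurospheres far under them. Sst, somatostatin, was called at 0.0257 but not without tumor 1 (0.113), tumor 2 (0.175) or neurosphere 4 (0.0526). Reln, reelin, was called at 0.0243 but not without tumor 1 (0.15), tumor 2 (0.128) or neurosphere 3 (0.0503). Lhx6, another interneuron factor, was called at 0.0138 but not without tumor 2 (0.154). Gad1, the second GABA-making enzyme, read 13.57 and 12.59 against 6.38, 10.78, 8.84 and 5.98 and missed the threshold (5.09, SE 1.71, adjusted p = 0.0592). It passed without neurosphere 2, the highest culture (adjusted p = 0.0294).

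**Figure D2:**
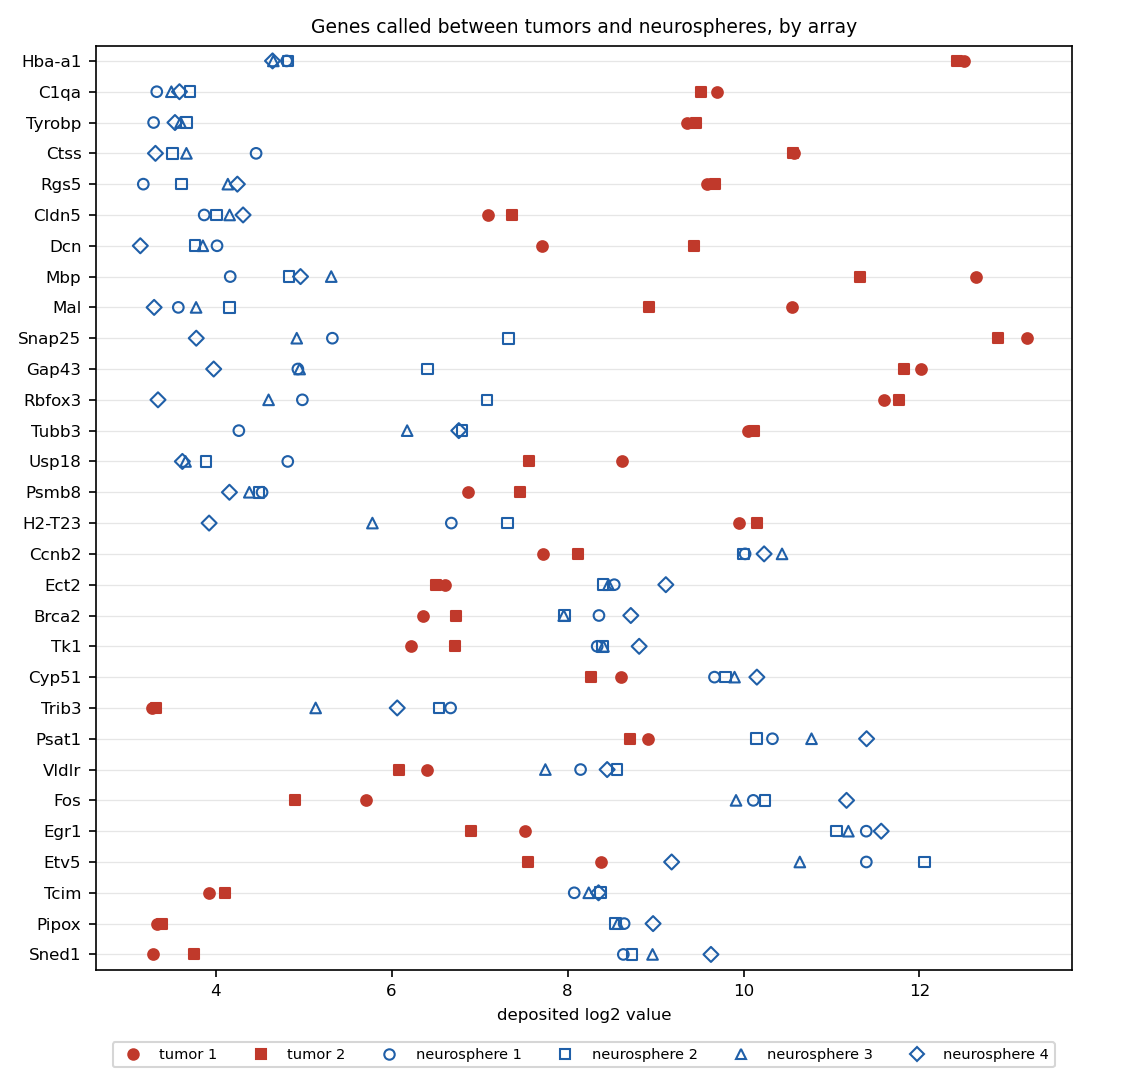
Deposited log2 values of 30 genes that passed limma adjusted p of 0.05, in 2 tumors (filled red circle and square) and 4 neurospheres (open blue circle, square, triangle and diamond). Tumors lie above all neurospheres from Hba-a1 to H2-T23 and under them from Ccnb2 to Sned1, and Mbp and Mal show tumor 1 above tumor 2.

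Interferon response genes rose in 18 of 23 and fell in 0, with a median of 2.07. Interferons are antiviral cytokines that switch on a shared set of genes through STAT and IRF factors, which bind a promoter element called ISRE. Promoter windows of 3 of these genes are shown because each holds the ISRE letters TTTC, any 2 bases and TTTC again, in capitals. The genes were picked after their values were seen, and the windows are given 5′ to 3′ on the strand of the gene.
Ifit1: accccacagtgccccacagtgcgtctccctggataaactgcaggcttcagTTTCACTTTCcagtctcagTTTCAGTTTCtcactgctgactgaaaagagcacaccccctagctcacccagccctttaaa
Ifit3: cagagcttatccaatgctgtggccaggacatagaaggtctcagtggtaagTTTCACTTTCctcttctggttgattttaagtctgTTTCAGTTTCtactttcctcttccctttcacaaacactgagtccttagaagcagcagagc
Gbp2: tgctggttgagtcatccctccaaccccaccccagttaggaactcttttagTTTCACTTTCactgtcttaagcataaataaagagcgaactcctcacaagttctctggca
From RefSeq on GRCm38.p6, they lie at chr19:34640735-34640863 (Ifit1), chr19:34583323-34583466 (Ifit3) and chr3:142620554-142620662 (Gbp2), all on the + strand. The 250 bases before the gene start were searched on either strand. The letters were found in 8 of 14 called members with a RefSeq promoter (57.1%) and in 3.46% of 27025 genes. Of all measured members, called or not, 10 of 19 held them (52.6%), against 3.09% of measured genes. The share describes the list and is no support for the calls. A match describes the letters and does not show a bound factor.

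The 3 genes with these windows were separated between the groups. Ifit1, which binds viral RNA, read 7.35 and 6.53 in tumors and 3.73, 3.70, 3.64 and 3.56 in neurospheres (3.28, SE 0.89, limma adjusted p = 0.0245). Ifit3, of the same family, read 8.44 and 7.71 against 4.22, 4.21, 3.97 and 3.83 (4.02, SE 0.84, adjusted p = 0.00784). Gbp2, a guanylate-binding protein of cell defence, read 7.31 and 7.57 against 4.34, 4.69, 4.41 and 3.10 (3.30, SE 0.68, adjusted p = 0.00701). No neurosphere reached a tumor in them, but the call of Ifit1 was lost without tumor 1 (0.188) or tumor 2 (0.096), that of Ifit3 without tumor 1 (0.0862) and that of Gbp2 without tumor 1 (0.0552) or tumor 2 (0.0693).

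Other interferon genes moved by larger or smaller steps. Usp18, a brake on interferon signalling, read 8.62 and 7.56 against 4.82, 3.89, 3.66 and 3.62 (4.09, SE 0.84, limma adjusted p = 0.00689), and its call was lost without tumor 1 (0.0863). Psmb8, an immunoproteasome subunit, read 6.87 and 7.46 against 4.53, 4.49, 4.38 and 4.16 (2.78, SE 0.46, adjusted p = 0.00242). The dimmer probe set of Psmb8 gave 0.29. Irf8, an interferon-regulated factor that myeloid cells also express, read 5.81 and 5.92 against 4.07, 3.54, 3.92 and 3.64 (2.07, SE 0.33, adjusted p = 0.00198). Tumors were above every neurosphere in these 3. Mx2, a GTPase against viruses, rose by 0.73 (adjusted p = 0.00292), lost without tumor 1 (0.0552), and Psmb9, an immunoproteasome subunit, by 1.75 (adjusted p = 0.00696), lost without tumor 2 (0.0758) and with its probe sets averaged (0.74, adjusted p = 0.0571). The 5 members that did not pass overlapped between the groups, with differences of -0.057 for Irf1, 0.17 for Stat2, 1.24 for Ifit2, 2.03 for Rsad2 and 0.27 for Ifitm3. Rsad2, an antiviral enzyme, read 8.95, 7.34, 5.53 and 4.27 in the neurospheres and 8.81 and 8.30 in the tumors, so neurosphere 1 was above both tumors. Without tumor 1, 3 members were called, and without tumor 2, 7. The list averaged 7.39 and 7.02 in tumors and 4.54 to 5.33 in neurospheres, and the macrophage and vessel markers moved with it; their part in these rises was not tested.

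Antigen presentation genes rose in 3 of 12 and fell in 0 (median 1.12). H2-T23, a non-classical MHC class I gene, read 9.94 and 10.16 in tumors and 6.68, 7.32, 5.78 and 3.93 in neurospheres (4.12, SE 0.77, limma adjusted p = 0.0044). The neurospheres spread over more than 3 log2 units without reaching the tumors. The dimmer probe set of H2-T23 gave a difference of 0.007. The MHC class II chain H2-Aa read 7.22 and 6.597 against 4.31, 3.98, 4.19 and 4.13 (2.76, SE 0.68, adjusted p = 0.016), and its call was lost without tumor 1 (0.143) or tumor 2 (0.0741). The class II chain H2-Ab1 read 7.19 and 7.33 against 5.44, 5.45, 4.88 and 3.89 (2.34, SE 0.66, adjusted p = 0.0288), and its call was lost without tumor 1 (0.142), tumor 2 (0.165), neurosphere 3 (0.0501) or neurosphere 4 (0.0604). Thus 1 gene of the list was called with either tumor left out, and 2 without neurosphere 3 or 4. Macrophages and microglia carry class II chains, and their markers moved with this list (21 of 23 higher, on average 7.31 and 7.52 in tumors and 3.77 to 4.10 in neurospheres); their part was not tested.

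**Figure D3:**
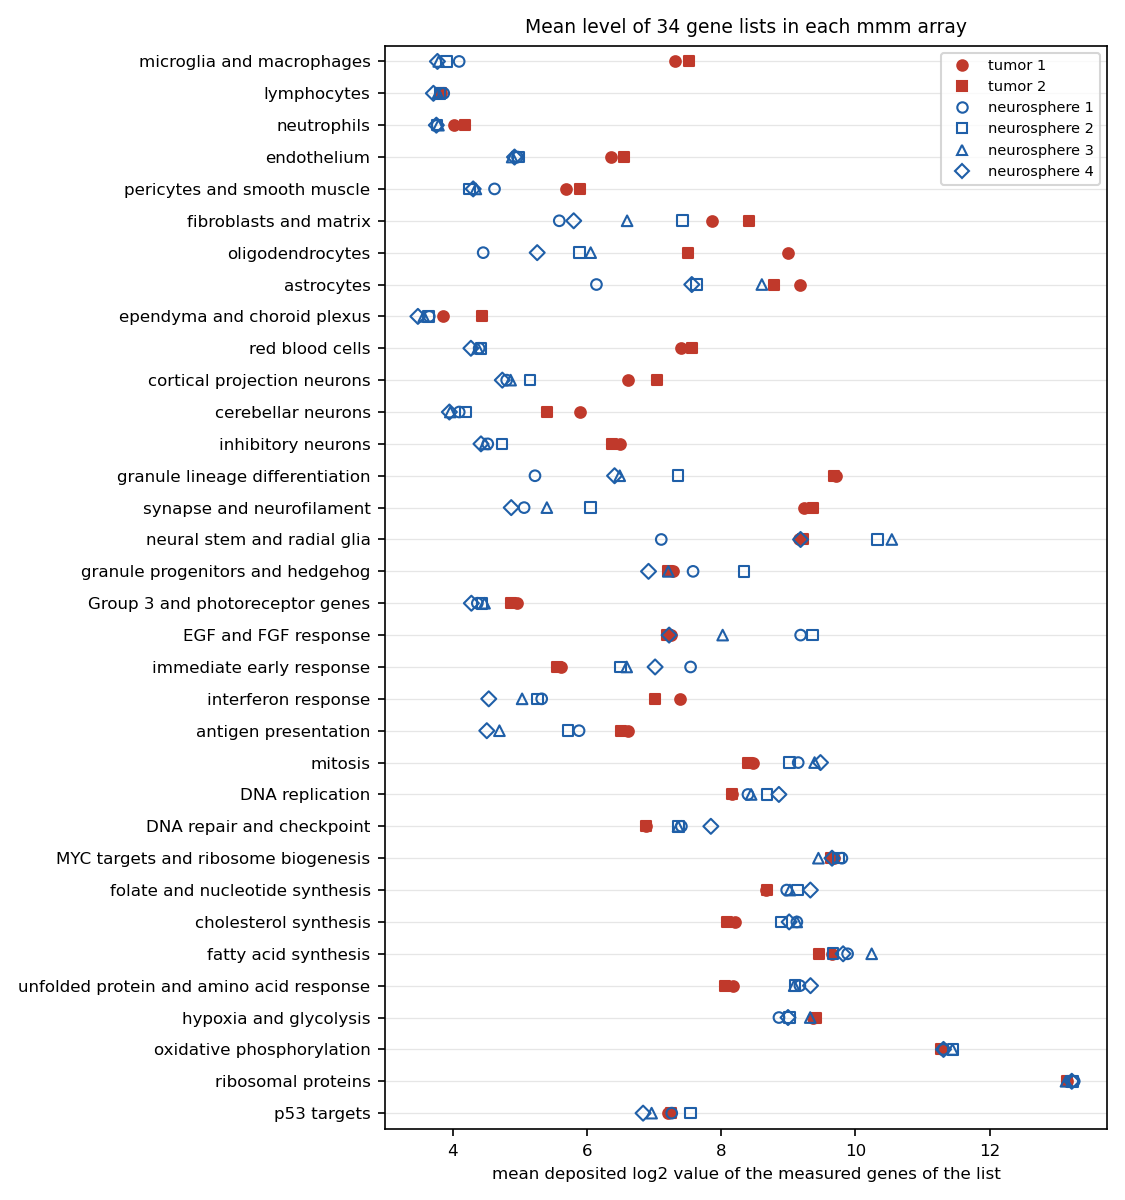
Mean log2 level over the measured genes of gene lists in each of the 2 tumors and 4 neurospheres. Microglia and macrophage genes average 7.31 and 7.52 in tumors and 3.77 to 4.10 in neurospheres, while mitosis genes average 8.48 and 8.40 in tumors and 9.02 to 9.48 in neurospheres.

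Cell division genes ran the other way. Of 34 mitosis genes 16 fell and 0 rose (median -0.79), and the list averaged 8.48 and 8.40 in tumors and 9.02 to 9.48 in neurospheres. Many of these genes are held down outside division through a promoter element called CHR. Promoter windows of 3 members are shown because each holds the CHR letters TTTGAA, in capitals. They were picked after their values were seen, come from RefSeq on GRCm38.p6 and run 5′ to 3′ on the strand of the gene.
Ccnb2: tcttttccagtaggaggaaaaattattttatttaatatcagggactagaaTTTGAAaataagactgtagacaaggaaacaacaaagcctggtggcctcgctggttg
Ect2: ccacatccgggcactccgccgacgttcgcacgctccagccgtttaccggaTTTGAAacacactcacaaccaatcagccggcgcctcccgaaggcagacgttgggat
Cdk1: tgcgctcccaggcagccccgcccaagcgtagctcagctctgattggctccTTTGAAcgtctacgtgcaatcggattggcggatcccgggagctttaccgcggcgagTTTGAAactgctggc
All lie on the - strand, at chr9:70421666-70421771 (Ccnb2), chr3:27153937-27154042 (Ect2) and chr10:69352913-69353033 (Cdk1). Within the 250 bases before the gene start, on either strand, the letters were found in 6 of 11 called mitosis genes with a promoter in the table (54.5%) and in 18.3% of 27025 genes.

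The values of the 3 genes with these windows separated the groups. Ccnb2, a mitotic cyclin, read 7.72 and 8.12 in tumors and 10.02, 9.999, 10.44 and 10.23 in neurospheres (-2.25, SE 0.35, limma adjusted p = 0.00173). Ect2, which drives the cleavage furrow, read 6.61 and 6.51 against 8.53, 8.40, 8.47 and 9.12 (-2.07, SE 0.36, adjusted p = 0.00283). Cdk1, the kinase that starts mitosis, read 10.64 and 10.37 against 10.94, 11.26, 11.35 and 11.14 (-0.67, SE 0.18, adjusted p = 0.0254), a smaller gap; its call was lost without tumor 1 (0.0784), tumor 2 (0.226) or neurosphere 3 (0.0526). Every neurosphere was above both tumors in all 3. Ccna2, the cyclin of S phase and early mitosis, fell by 1.60 (SE 0.26, adjusted p = 0.00205). Kif23, a motor of the dividing cell's midzone, fell by 1.79 (adjusted p = 0.00577), lost without tumor 1 (0.0597) or tumor 2 (0.0501). Hmmr, a spindle protein, fell by 1.30 (adjusted p = 0.00858), lost without tumor 1 (0.0563) or tumor 2 (0.0895). Cdc20, an activator of the anaphase ubiquitin ligase, fell by 0.78 (adjusted p = 0.0329), lost without tumor 1 (0.139), tumor 2 (0.201), neurosphere 3 (0.0664) or neurosphere 4 (0.0694). In 2 members the tumors lay above all neurospheres, though limma called neither: Bub1b, a checkpoint kinase (0.40, adjusted p = 0.169), and Ube2c, a ubiquitin enzyme of mitosis (0.29, adjusted p = 0.273). The dimmer probe sets of Bub1b gave 0.36 and -0.61. With either tumor left out, 3 mitosis genes were called. The markers of macrophages, vessels, myelin and neurons that rose in these tumors moved with these falls, and their part was not tested.

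DNA replication genes fell in 10 of 41 and rose in 1 (median -0.58), and DNA repair and checkpoint genes fell in 6 of 23 and rose in 1 (median -0.49). Rpa1, which coats single-stranded DNA, read 9.69 and 9.75 in tumors and 10.45, 10.49, 10.39 and 10.78 in neurospheres (-0.81, SE 0.14, limma adjusted p = 0.00283). Brca2, of recombination repair, read 6.36 and 6.74 against 8.36, 7.97, 7.96 and 8.72 (-1.70, SE 0.26, adjusted p = 0.00136). Neither overlapped. Fanca, of crosslink repair, fell by 1.05 (SE 0.18, adjusted p = 0.00287). Pola2, a subunit of the priming polymerase, fell by 1.06 (adjusted p = 0.0167), lost without tumor 1 (0.0941) or tumor 2 (0.129). The members that rose were Gins1, of the replicative helicase (0.68, SE 0.15, adjusted p = 0.00934; lost without tumor 1 (0.0614) or tumor 2 (0.0973)), and Fancm, a DNA translocase (0.74, SE 0.16, adjusted p = 0.00925; lost without tumor 2 (0.108)). The call of Fancm was also lost with its probe sets averaged (0.34, adjusted p = 0.217). With either tumor left out, 1 replication gene and 2 repair genes were called lower. Without neurosphere 4, which had the highest mean level in both lists, 5 replication genes were called lower.

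Folate and nucleotide synthesis genes, which supply DNA synthesis and include targets of antifolates, fell in 6 of 24 and rose in 0 (median -0.36). Tk1, the thymidine kinase of the salvage route, read 6.22 and 6.73 in tumors and 8.34, 8.39, 8.41 and 8.81 in neurospheres (-2.02, SE 0.28, limma adjusted p = 0.000922). Gmps, which makes GMP, read 8.20 and 8.13 against 9.53, 9.98, 9.73 and 10.24 (-1.71, SE 0.21, adjusted p = 0.000451). The groups did not overlap in either, but the other probe set of Gmps, at mean levels of 7.64 and 7.62, gave a difference of 0.017. Adsl, of purine synthesis, fell by 1.10 (adjusted p = 0.00937), lost without tumor 1 (0.0766) or tumor 2 (0.0779). Dtymk, the thymidylate kinase, fell by 1.03 (adjusted p = 0.0106), lost without tumor 1 (0.0796) or tumor 2 (0.0863). Slc19a1, the carrier of reduced folate, fell by 0.83 (adjusted p = 0.0153), lost without tumor 1 (0.136) or tumor 2 (0.0793). With either tumor left out, 2 genes of that list were called.

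Stress and amino acid genes of the unfolded protein response list fell in 13 of 24 and rose in 1 (median -1.21). This response raises amino acid synthesis, transport and chaperones under stress, in part through ATF4, which binds a promoter element called CARE. Windows of 3 members that hold the CARE letters TGATGNAA on either strand, in capitals, are shown from RefSeq on GRCm38.p6, 5′ to 3′ on the strand of the gene. They were picked after their values were seen.
Vldlr: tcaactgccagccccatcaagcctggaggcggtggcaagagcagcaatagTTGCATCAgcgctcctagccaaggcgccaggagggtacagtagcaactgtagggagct
Asns: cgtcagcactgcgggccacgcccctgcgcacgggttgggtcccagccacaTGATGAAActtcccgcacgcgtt
Chac1: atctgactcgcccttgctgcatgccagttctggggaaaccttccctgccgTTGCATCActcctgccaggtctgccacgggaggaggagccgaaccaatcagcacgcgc
They lie at chr19:27216770-27216877 (Vldlr, + strand), chr6:7693210-7693282 (Asns, - strand) and chr2:119350999-119351106 (Chac1, + strand). In the 250 bases before the gene start the letters were found in 4 of 12 called members with a RefSeq promoter (33.3%). They were found in 3.91% of 27025 genes. Of all measured members, called or not, 6 of 21 held them (28.6%), against 2.86% of measured genes. The share describes the list and is no support for the calls. Vldlr, a lipoprotein receptor, read 6.40 and 6.08 in tumors and 8.15, 8.56, 7.75 and 8.45 in neurospheres (-1.98, SE 0.27, limma adjusted p = 0.000756). Asns, which makes asparagine, read 9.75 and 9.86 against 10.74, 10.78, 11.08 and 11.79 (-1.29, SE 0.28, adjusted p = 0.00895), lost without tumor 1 (0.0843) or tumor 2 (0.063). Chac1, which breaks down glutathione, read 5.25 and 4.94 against 7.79, 7.84, 6.71 and 7.25 (-2.30, SE 0.55, adjusted p = 0.0136), lost without tumor 1 (0.0787) or tumor 2 (0.115). All neurospheres were above both tumors in the 3.

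Further members of that response that fell included the genes of serine synthesis. Trib3, a pseudokinase induced by ATF4, read 3.28 and 3.33 in tumors and 6.67, 6.54, 5.14 and 6.06 in neurospheres (-2.80, SE 0.36, limma adjusted p = 0.000558). Psat1 read 8.91 and 8.71 against 10.33, 10.15, 10.77 and 11.40 (-1.85, SE 0.30, adjusted p = 0.00188), Phgdh 9.13 and 9.15 against 10.12, 10.56, 11.02 and 11.20 (-1.59, SE 0.30, adjusted p = 0.00486), and Psph 8.12 and 7.93 against 9.14, 9.47, 10.49 and 10.26 (-1.82, SE 0.34, adjusted p = 0.00451). The call of Phgdh was lost without tumor 1 (0.0507) and that of Psph without tumor 2 (0.054). Hspa5, the main chaperone of the endoplasmic reticulum, read 11.51 and 11.38 against 11.33, 11.28, 11.57 and 11.56, an overlap (adjusted p = 0.973). Xbp1, a transcription factor of the unfolded protein response, overlapped too (0.25, adjusted p = 0.587). The one that rose was Dnajb9, a co-chaperone of Hspa5 (0.89, SE 0.19, adjusted p = 0.00796), lost without tumor 1 (0.104). Without tumor 1 or tumor 2, 5 and 4 members were called lower.

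Cholesterol synthesis genes fell in 10 of 18 and rose in 0 (median -0.92). SREBP factors drive them through a sterol response element, SRE, and the window of Hmgcs1, which starts the pathway, is shown because it was the called member with the letters TCACNCCAC, in capitals.
Hmgcs1: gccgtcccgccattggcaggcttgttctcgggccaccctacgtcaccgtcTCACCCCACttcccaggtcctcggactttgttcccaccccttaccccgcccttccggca
It lies at chr13:119690164-119690272 on the + strand of GRCm38.p6, from RefSeq, and runs 5′ to 3′. The search covered the 250 bases before the gene start on either strand. The letters were found in 1 of 8 called members with a RefSeq promoter (12.5%) and in 1.22% of 27025 genes. Of all measured members, called or not, 1 of 14 held them (7.14%), against 1.3% of measured genes. The share describes the list and is no support for the calls. Hmgcs1 read 3.97 and 3.95 in tumors and 7.83, 5.56, 5.63 and 6.97 in neurospheres (-2.54, SE 0.58, limma adjusted p = 0.0119), and its call was lost without tumor 1 (0.0865) or tumor 2 (0.0895). Cyp51, a sterol demethylase, read 8.61 and 8.27 against 9.67, 9.79, 9.90 and 10.15 (-1.44, SE 0.17, adjusted p = 0.000432). Sqle, the squalene epoxidase, read 9.30 and 9.30 against 10.29, 10.35, 10.56 and 10.69 (-1.17, SE 0.17, adjusted p = 0.00113). All 3 genes were lower in both tumors than in any neurosphere. Mvk, the mevalonate kinase, fell by 1.56 (SE 0.26, adjusted p = 0.00234), and Insig1, a sterol sensor, by 1.45 (SE 0.25, adjusted p = 0.00267). Limma called 5 members with either tumor left out. Fatty acid synthesis genes fell in 3 of 11 (median -0.31), with 2 called without tumor 1 and 0 without tumor 2, and its median was -0.50 without neurosphere 2. Fads1, a desaturase, fell by 1.27 (adjusted p = 0.00608), lost without tumor 2 (0.0838).

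Immediate early genes, which switch on within minutes of a growth or stress signal, fell in 5 of 16 and rose in 0 (median -0.64). Fos, a subunit of AP-1, read 5.71 and 4.90 in tumors and 10.11, 10.24, 9.92 and 11.17 in neurospheres (-5.06, SE 0.79, limma adjusted p = 0.00171). Egr1, a zinc finger factor, read 7.52 and 6.90 against 11.40, 11.05, 11.19 and 11.57 (-4.09, SE 0.90, adjusted p = 0.00941), lost without tumor 1 (0.0598) or tumor 2 (0.0939). Fosb, another AP-1 subunit, read 1.12 and 0.80 against 5.61, 2.91, 3.002 and 5.62 (-3.33, SE 0.86, adjusted p = 0.0206), lost without tumor 1 (0.11) or tumor 2 (0.142). Both tumors were under all neurospheres in them, and for Fosb under the lowest dka value. Leaving out either tumor left 1 call, and without neurosphere 4, 3. Handling of the samples, which can move these genes, was not given in the labels.

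EGF and FGF response genes fell in 3 of 16 and rose in 0 (median -1.12), and 0 were called with either tumor left out. The median was -0.65 without neurosphere 2 and -1.66 without neurosphere 4. The 3 that fell were Egr1, which is on both lists and lost its call without tumor 1 (0.0598) or tumor 2 (0.0939), Etv5 and Spry2. Etv5, an ETS factor downstream of FGF, read 8.38 and 7.55 in tumors and 11.40, 12.05, 10.64 and 9.18 in neurospheres (-2.86, SE 0.79, limma adjusted p = 0.0271), lost without tumor 1 (0.0963) or tumor 2 (0.207). Spry2, a feedback inhibitor of the same pathway, read 7.98 and 7.28 against 9.52, 10.65, 9.61 and 8.80 (-2.02, SE 0.58, adjusted p = 0.0315), lost without tumor 1 (0.0984), tumor 2 (0.238), neurosphere 2 (0.0543) or neurosphere 3 (0.0522). The neurospheres themselves spread widely in this list, whose mean levels were 9.19, 9.37, 8.02 and 7.23 in neurospheres 1 to 4 and 7.26 and 7.199 in the tumors. Spry4, another feedback inhibitor, read 9.72, 9.20, 6.26 and 4.45 in the neurospheres and 6.78 and 6.81 in the tumors, so the tumors lay inside the range of the cultures (adjusted p = 0.76). Dusp6, an ERK phosphatase, kept the same order with 11.70, 11.65, 9.44 and 8.12 against 8.64 and 9.04 (adjusted p = 0.302). Dusp4 (-0.64), Ier3 (-1.18) and Spry1 (-1.07) overlapped as well. Spry1 was called without neurosphere 4, the lowest culture (adjusted p = 0.0152). Neurospheres 1 and 2 were above neurospheres 3 and 4 in all 5 of these genes.

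Neural stem and radial glia genes did not move one way. Of 20 measured, 2 rose and 4 fell (median 0.14), and the sign of that median turned with neurosphere 1 left out (-0.84) or neurosphere 4 left out (-0.006). Lgals1, a galectin of dividing progenitors, read 9.59 and 10.19 in tumors and 12.80, 12.83, 12.27 and 11.999 in neurospheres (-2.59, SE 0.27, limma adjusted p = 0.000204). Hes1, a Notch target, fell by 2.65 (adjusted p = 0.00503), lost without tumor 2 (0.0533). Nes, the filament nestin, fell by 1.26 (adjusted p = 0.0161), lost without tumor 1 (0.0827) or tumor 2 (0.134). Sox21, a SOX factor, fell by 3.61 (adjusted p = 0.029), lost without tumor 1 (0.126), tumor 2 (0.183), neurosphere 2 (0.0518), neurosphere 3 (0.0574) or neurosphere 4 (0.0631). Pax6, a factor of progenitors and of granule neurons, rose, with 9.89 and 9.94 against 8.27, 8.19, 8.77 and 8.72 (1.43, SE 0.26, adjusted p = 0.00349). Without tumor 1, 1 was called higher and 2 lower, without tumor 2 it was 1 and 1, and without neurosphere 4 it was 1 and 3.

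Tumor lineage lists gave few calls. Of 15 granule progenitor and hedgehog genes 0 rose and 2 fell (median -0.58; -0.22 without neurosphere 2 and -0.37 without neurosphere 1), with 1 call without tumor 1, 0 without tumor 2 and 4 falls without neurosphere 1. Without neurosphere 2, 2 of these genes rose, and without neurosphere 4, 1. Hhip, a hedgehog decoy receptor, read 4.04 and 3.91 in tumors and 5.66, 6.07, 6.22 and 6.63 in neurospheres (-2.17, SE 0.43, limma adjusted p = 0.00573), lost without tumor 2 (0.0592). Boc, a hedgehog co-receptor, read 4.74 and 4.39 against 5.42, 6.86, 6.34 and 6.80 (-1.79, SE 0.41, adjusted p = 0.0123), lost without tumor 1 or tumor 2. The dimmer probe set of Boc gave 0.018. Of 16 Group 3 and photoreceptor genes 3 rose and 2 fell (median 0.10), and 1 fell with either tumor left out. Npr3, a natriuretic peptide receptor, read 8.07 and 8.28 against 4.60, 4.65, 4.91 and 4.25 (3.57, SE 0.65, adjusted p = 0.00379). Eya1, a phosphatase and transcription cofactor, read 5.08 and 6.45 against 10.08, 8.86, 10.10 and 9.40 (-3.85, SE 0.51, adjusted p = 0.000711). Neither gene overlapped. Gabra5, a GABA receptor subunit, was called at 0.0359 but not without tumor 1 (0.104), tumor 2 (0.261), neurosphere 2 (0.0581), neurosphere 3 (0.0585) or neurosphere 4 (0.0697). Aipl1, a photoreceptor chaperone, fell by 0.94 (adjusted p = 0.00861), lost without tumor 1 (0.0954) or tumor 2 (0.0511).

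Lists of growth and energy metabolism lay near the middle of all genes. Of 32 MYC target and ribosome biogenesis genes 1 rose and 0 fell (median -0.08). The riser was Odc1, of polyamine synthesis, at 9.95 and 9.95 in tumors and 8.06, 8.61, 8.30 and 8.49 in neurospheres (1.59, SE 0.17, limma adjusted p = 0.000198). Without neurosphere 1, 2 rose and 1 fell, without neurosphere 2, 2 rose, and without neurosphere 3, 3 fell. Of 19 ribosomal protein genes limma called 0 (2 at an unadjusted p under 0.05; median -0.05), with the widest differences at -0.31 for Rpl23 (adjusted p = 0.0659) and -0.24 for Rplp0 (adjusted p = 0.107). Of 24 oxidative phosphorylation genes 1 rose and 2 fell (median -0.082). These were the complex I subunits Ndufa1 (0.42; lost without tumor 1 (0.125) or tumor 2 (0.113)), Ndufb3 (-0.55; lost without tumor 1 (0.0528) or tumor 2 (0.101)) and Ndufb5 (-0.63; lost without tumor 1 (0.076) or tumor 2 (0.143)). Thus 0 of them were called with either tumor left out, and 4 fell without neurosphere 1.

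Hypoxia and glycolysis genes rose in 3 of 21 and fell in 0 (median 0.29; 0.47 without neurosphere 3, when 5 rose). Tpi1, of glycolysis, was called (0.63, SE 0.15, limma adjusted p = 0.0144) but not without tumor 1 (0.0935) or tumor 2 (0.113). Pfkp, a phosphofructokinase (2.18, SE 0.67, adjusted p = 0.0431), was not without tumor 1 (0.195), tumor 2 (0.194) or neurosphere 4 (0.0914), and Egln1, an oxygen sensor (0.93, SE 0.26, adjusted p = 0.027), was not without tumor 1 (0.143), tumor 2 (0.154) or neurosphere 2 (0.0517). The other probe set of Egln1 gave -0.053, and the mean of both gave 0.44 (adjusted p = 0.318). Thus no hypoxia gene was called with either tumor left out. Targets of p53, which is deleted in both groups, rose in 3 of 17 and fell in 1 (median 0.04, which turned negative without tumor 2, neurosphere 3 or neurosphere 4). Aen, a nuclease, read 9.09 and 9.09 in tumors and 8.28, 7.99, 8.21 and 7.71 in neurospheres (1.04, SE 0.17, adjusted p = 0.00219) without overlap. Phlda3 rose by 2.26 (adjusted p = 0.00609), lost without tumor 1 (0.0975). The stress-induced sestrins split: Sesn1 rose by 0.85 (adjusted p = 0.0305), lost without tumor 1 (0.138), tumor 2 (0.184) or neurosphere 3 (0.0512), and Sesn2 fell by 1.60 (adjusted p = 0.00952), lost without tumor 2 (0.107). Without tumor 1, 1 p53 target rose, and without tumor 2, 2 rose and 0 fell. Without neurosphere 1, 3 fell, and without neurosphere 3, 2.

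Several of the largest differences belonged to no list. Apod, the lipid carrier apolipoprotein D, read 10.29 and 10.78 in tumors and 3.73, 4.32, 3.80 and 3.26 in neurospheres (6.76, SE 0.65, limma adjusted p = 0.000127). On the falling side, Pipox, an enzyme of sarcosine and pipecolate oxidation, read 3.34 and 3.39 against 8.64, 8.54, 8.57 and 8.97 (-5.32, SE 0.38, adjusted p = 1.98e-05). Sned1, a matrix protein, read 3.29 and 3.75 against 8.63, 8.73, 8.97 and 9.63 (-5.47, SE 0.42, adjusted p = 2.81e-05). The cultures lay close together and the tumors under the array medians in both falling genes. Tcim, a regulator of Wnt signalling, read 3.92 and 4.11 against 8.08, 8.38, 8.24 and 8.35 (-4.25, SE 0.17, adjusted p = 7.19e-07). Sfrp2, a secreted Wnt modulator, read 3.32 and 2.73 against 8.53, 7.28, 8.29 and 9.19 (-5.30, SE 0.44, adjusted p = 5.08e-05). Adhfe1, a mitochondrial dehydrogenase, fell by 4.23 and Bche, butyrylcholinesterase, by 4.26 (adjusted p = 0.000219 and 0.000735). Serhl fell by 3.80 (adjusted p = 0.000228) and Rnf217, a ubiquitin ligase, by 3.75 (adjusted p = 0.0026). The dimmer probe set of Serhl gave -0.025.

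**Figure D4:**
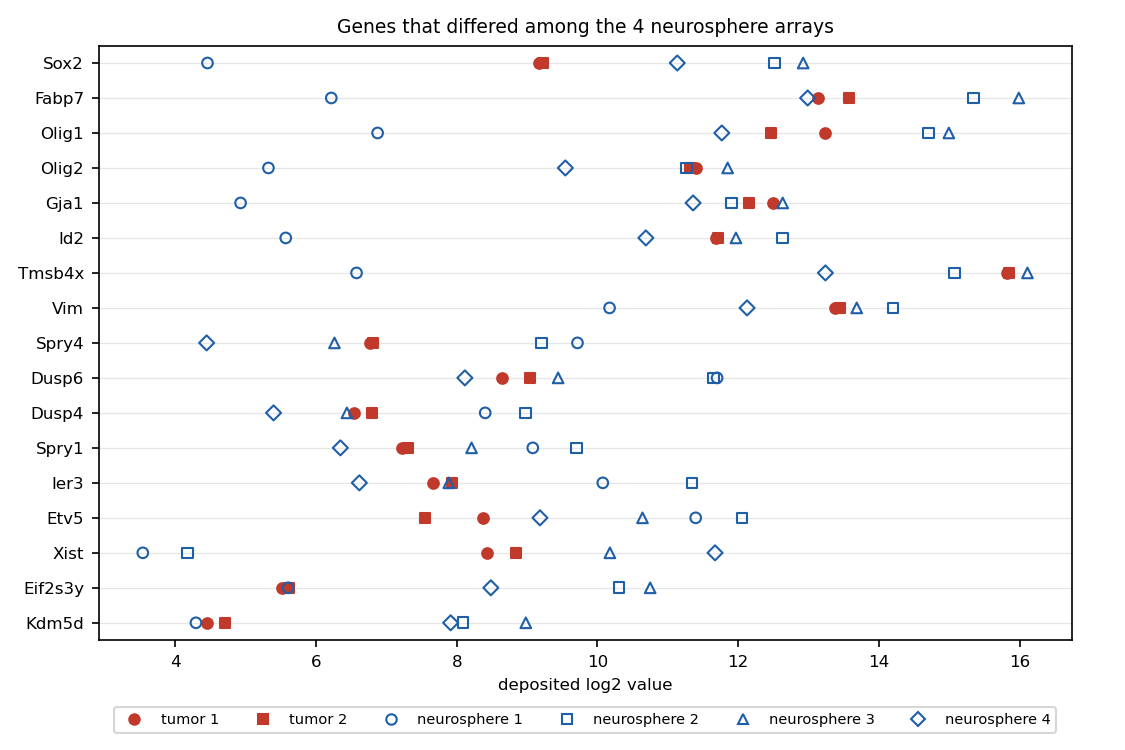
Deposited log2 values of 17 genes in 2 tumors (filled red) and 4 neurospheres (open blue), chosen for their spread among neurospheres. Neurosphere 1 is low in Sox2, Fabp7, Olig1, Gja1 and Tmsb4x, and neurospheres 1 and 2 lie above 3 and 4 in Spry4 and Dusp6.

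The neurospheres differed from each other more than the tumors did. The median SD over genes was 0.27 among neurospheres and 0.093 between tumors. Neurosphere 1 stood apart in progenitor and glial genes picked for that spread after the values were seen. Sox2, a stem cell factor, read 4.46 in neurosphere 1 and 11.13 to 12.92 in the others, with tumors at 9.18 and 9.23. Fabp7, a fatty acid binding protein of radial glia, read 6.22 and 12.99 to 15.99, with tumors at 13.14 and 13.58. Tmsb4x, an actin-binding peptide, read 6.58 and 13.24 to 16.11, with tumors at 15.83 and 15.85. In all 3 the tumors resembled neurospheres 2 to 4 more than neurosphere 1. The oligodendrocyte factors Olig1 (6.88 against 11.77 to 14.99) and Olig2 (5.33 against 9.54 to 11.85) had that order too. So had Gja1, an astrocyte gap junction protein (4.93 against 11.36 to 12.63), Id2, an inhibitor of differentiation (5.57 against 10.69 to 12.63), and Vim, the filament vimentin (10.17 against 12.13 to 14.20). None of these genes passed between tumors and neurospheres, with limma adjusted p-values of 0.304 (Tmsb4x) to 0.855 (Fabp7).

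Genes of the sex chromosomes divided the cultures. Xist, the RNA of the inactive X, read 3.54, 4.17, 10.18 and 11.67 in neurospheres 1 to 4 and 8.43 and 8.84 in tumors. Eif2s3y, on the Y chromosome, read 5.61, 10.31, 10.75 and 8.49 and 5.52 and 5.61, and Kdm5d, also on the Y, 4.30, 8.09, 8.98 and 7.91 and 4.45 and 4.71. Neurospheres 3 and 4 were high in both Xist and the Y genes, neurosphere 2 in the Y genes alone, and neurosphere 1 in neither. The tumors were high in Xist and low in the Y genes. With neurosphere 1 left out, limma called Eif2s3y (adjusted p = 0.000502) and Kdm5d (adjusted p = 0.000119), which it did not call with all arrays (0.054 and 0.0666). Whether a culture was 1 cell line, a pool or a mixture is not given in the labels.

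The widest gaps between the tumors included neuronal genes. Slc17a6, a glutamate transporter of neurons, read 10.79 and 7.37 and 4.09 to 4.34 in neurospheres (4.84, SE 1.37, limma adjusted p = 0.0299), lost without tumor 1 (0.308) or neurosphere 4 (0.0576). Crym, a thyroid hormone binding protein of forebrain neurons, read 6.05 and 10.46 against 3.90 to 4.68 (adjusted p = 0.0606), and passed without tumor 1 (0.031). Tumor 1 was the higher in Slc17a6 and tumor 2 in Crym, and both genes were picked for that gap after the values were seen.

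The same comparison under the code dka, 3 tumors against 3 neurospheres, shared no arrays with this one, and a test of the difference between the codes called 1567 genes (9.17%), 746 higher under mmm (4.36%) and 821 lower (4.8%). With the spread from all 26 arrays, 8.81% of genes were higher in dka tumors than in dka neurospheres and 9.74% lower. The mmm counts given before came from the 14 mmm arrays, and with all 26 arrays the mmm comparison called 3782 genes. Without tumor 1 the test of the difference called 369 genes, without tumor 2 it called 394, and without neurosphere 4 it called 1017. With a common interquartile range 25.1% of 2017 calls were higher under mmm, against 47.6% here. The ranges of the arrays differ between the codes, and code and preparation cannot be told apart. Whether neurospheres 1 to 3 and the dka neurospheres were separate cultures is not given in the labels.

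Macrophage genes rose under both codes, in 21 of 23 under mmm and 14 under dka, where 8.81% of all genes were higher. With all 26 arrays in the mmm fit, as for dka, 22 rose under mmm. The median of that list was 3.52 under mmm and 1.62 under dka, and 13 of its genes had a larger difference under mmm by the test. C1qa gave 6.08 and 3.88 (code difference 2.20, SE 0.62, adjusted p = 0.033), and Hba-a1 7.73 and 3.35 (4.38, SE 0.65, adjusted p = 0.00102). Vessel genes had like medians under the codes, at 1.49 and 1.23 for endothelium, and Rgs5 gave 5.84 and 5.71 (adjusted p = 0.936). Synapse genes had a median of 4.05 under mmm and 1.09 under dka, with 4 larger under mmm, among them Gria2, a glutamate receptor subunit (6.14 and -1.05, 7.19, SE 1.78, adjusted p = 0.0187; its mmm call was lost without tumor 1 (0.106) or tumor 2 (0.152)). Interferon genes had medians of 2.07 and 0.49, and 3 passed as larger under mmm.

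Growth genes moved differently under the codes. Of the 41 replication genes 12 rose under dka, where 10 fell under mmm, and 13 were lower under mmm by the test of the difference. With all 26 arrays in the mmm fit, as for dka, 15 fell under mmm. Of the 32 MYC target and ribosome biogenesis genes 21 rose under dka and 12 were lower under mmm by the test, and of the 24 folate and nucleotide genes 10 rose under dka and 9 were lower. The shares over all genes were 8.81% higher under dka and 4.8% lower under mmm by the test. Gmps gave -1.71 under mmm and 0.22 under dka (-1.92, SE 0.26, adjusted p = 0.000576), and 0.017 and 1.06 in its other probe set. Brca2 gave -1.70 and 0.48 (-2.18, SE 0.38, adjusted p = 0.00288), and Ccna2 -1.60 and 0.36 (-1.96, SE 0.31, adjusted p = 0.00173). Among stress genes, Fos gave -5.06 and 1.12 (-6.18, SE 1.01, adjusted p = 0.00195) and Psat1 -1.85 and -0.088 (-1.77, SE 0.39, adjusted p = 0.0111). In contrast, Lgals1 fell under both codes (-2.59 and -2.99, code difference at 0.646), as did Eya1 (-3.85 and -4.11, 0.846) and Pipox (-5.32 and -4.97, 0.752), and Odc1 rose under both (1.59 and 1.69, 0.827).

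The widest differences between the codes were in single genes. Sfrp2 fell under mmm (-5.30) and rose under dka (2.24), a difference of -7.54 (limma adjusted p = 2.66e-06). Phykpl, a hydroxylysine enzyme, fell under mmm (4.74 and 4.72 in tumors against 7.81, 7.66, 6.598 and 7.27, -2.61, SE 0.34, adjusted p = 0.00059) and rose under dka (1.12). Ptger3, a prostaglandin receptor, gave -2.29 under mmm (adjusted p = 0.122, and 0.00743 without neurosphere 3) and 5.15 under dka. The mmm tumors averaged 1.58 in Ptger3, under 2.56, the lowest value on the dka arrays. The other probe set of Ptger3 gave -0.27 under mmm and 0.30 under dka. Ccdc40, a cilium gene, gave -0.65 (adjusted p = 0.364) and 3.92. In the other direction, Gad1 gave 5.09 under mmm (adjusted p = 0.0592, and 0.0294 without neurosphere 2) and -4.34 under dka. Chl1, a neural adhesion molecule, gave 2.39 and -6.32 (8.71, SE 1.67, adjusted p = 0.00546), and Trim9, a neuronal ubiquitin ligase, 5.73 and -0.76 (6.49, SE 0.92, adjusted p = 0.000711). Thy1, a neuronal surface protein, gave 5.004 and -1.76 (6.76, SE 1.76, adjusted p = 0.0239), and its mmm call was lost without tumor 1 (0.207), tumor 2 (0.145), neurosphere 1 (0.0517), neurosphere 3 (0.0605) or neurosphere 4 (0.0713).

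**Figure D5:**
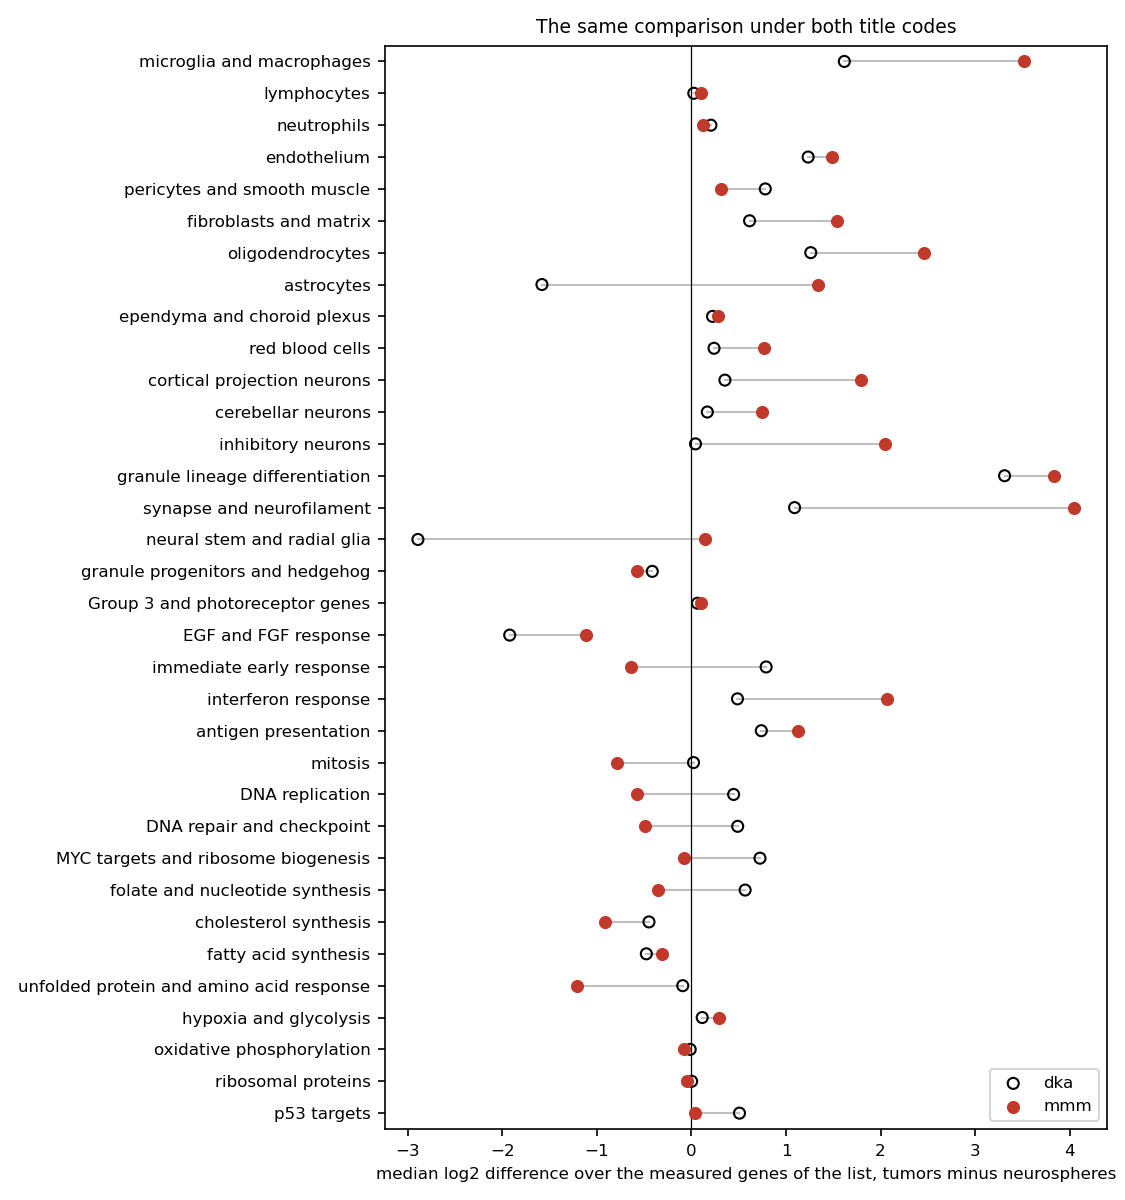
Median log2 difference between untreated tumors and Group3 neurospheres over the measured genes of each list, under code mmm and under code dka. The microglia and macrophage list has medians of 3.52 and 1.62, and the DNA replication list of -0.58 and 0.45.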

How the data were processed

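Total RNA was extracted with Trizol, amplified with NuGEN Ovation Pico WTA V2 and labelled with the NuGEN Encore Biotin Module, per the labels' protocols, and read on mouse Affymetrix HT MG-430 PM arrays. The deposited values are log2 intensities made with RMA (version not given) and Partek 6.6, per the submitters' processing notes. They were used as deposited, with 0 per-sample columns left out. Of 45141 probe sets, 28898 had 1 gene symbol, and the brightest of each gene on average was kept, giving 17097 genes. Among 181 genes named in the text, 88 had more than 1 probe set. In 18 of the 181, another probe set had a difference of the opposite sign.

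limma 3.58.1 in R 4.3.3 fitted 1 mean for each of 5 groups over the 14 arrays of code mmm, and p-values were adjusted over all genes by Benjamini-Hochberg at 0.05; SE is the moderated standard error. The test of the code difference and the dka comparison used all 26 arrays and 9 groups. The members and the 34 gene lists (597 of 683 names measured) were chosen with earlier results of these data known. Many genes were named by rule. The rule took the genotype genes and the 15 largest rises and falls without overlap and with a brighter mean of at least 7. It also took up to 5 called members of a list and the 10 largest code differences each way. Others were picked outside the rule, such as the uncalled Hspa5, Xbp1, Bub1b, Ube2c, Spry4 and Dusp6, and the text does not always say so. On simulated arrays of this layout, limma found 11.9%, 49.3% and 77.3% of genes changed 1.5-fold, 2-fold and 4-fold, with 3 false calls. The changed genes numbered 67, 67 and 66 of 17097, whereas limma called 3338 on the real arrays. Real neurospheres also varied more than real tumors, with median SDs of 0.271 and 0.093. The simulated shares and false calls thus describe the simulation, and whether they carry over was not tested. Only 2 tumors limit the precision. Replicate numbers follow deposit order. No results are given for Trp53, Ccnb1, Cda or Atic, which were not analysed here. Python 3.11.15 with matplotlib 3.10.9 drew the figures.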

Additional observations from a re-analysis of the deposited data

Results flagged for a closer look

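Among values of the 4 neurospheres, 8 of 215 tested had 1 array far from the other 3, and chance flags about 1 in 20 groups. Neurosphere 4 was low in Calb1 (3.26), a calcium-binding protein, and in Ube2c (11.08), a ubiquitin enzyme of mitosis. It was high in Tk1 (8.81), the thymidine kinase, and in the mean of the DNA repair and checkpoint list (7.85). Neurosphere 1 was high in the leukocyte genes Cd53 (4.24) and Csf3r (4.33), both under the array medians, and low in the gap junction gene Gja1 (4.93). Neurosphere 2 was low in Myh11 (3.63), smooth muscle myosin.

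For 50 of the 181 genes examined, the difference between tumors and neurospheres under code mmm departed from that under code dka in the limma test of that difference. Over all genes 9.17% did, and 12 of the 50 were named for the size of that very difference, so the count is a description. The values that follow are the mmm difference minus the dka difference on the log2 scale.

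Genes of macrophages and microglia were larger under mmm, with 2.20 for C1qa, 1.98 for Tyrobp, 2.49 for Cd53, 2.75 for Ctss, 3.17 for Ly86 and 3.30 for P2ry12. The globin genes gave 4.38 for Hba-a1 and 4.93 for Hbb-b2, and the glial genes 4.41 for Gjb6 and 6.00 for Olig2. Neuronal genes of the growth cone, inhibitory neurons and Purkinje cells gave 2.83 for Gap43, 2.11 for Gad2, 9.43 for Gad1, 3.76 for Dlx1, 3.82 for Sst and 6.58 for Calb1. Other genes of neurons and neural adhesion gave 5.91 for Vsnl1, 6.31 for Fam107a, 8.71 for Chl1, 8.06 for Eno2, 6.49 for Trim9, 7.19 for Gria2 and 6.76 for Thy1, while the early neuronal factor Nhlh1 went the other way (-1.55). The immune genes gave 1.43 for Irf8 and 4.10 for H2-T23.

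Cell cycle and repair genes were lower under mmm, with -1.84 for Ccnb2, -1.96 for Ccna2, -2.12 for Ect2, -1.46 for Kif23, -2.12 for Pola2, -2.18 for Brca2 and -1.39 for Fanca. Nucleotide and folate genes gave -1.92 for Gmps, -1.20 for Adsl, -1.39 for Dtymk and -1.78 for Slc19a1. The genes of sterol and amino acid synthesis gave -3.11 for Hmgcs1, -1.77 for Psat1, -1.64 for Phgdh and -1.64 for Asns, and the co-chaperone gene Dnajb9 gave 1.80. The AP-1 genes gave -6.18 for Fos and -5.38 for Fosb. Genes outside these groups gave -7.54 for Sfrp2, -2.61 for Tcim, -2.95 for Rnf217, -7.44 for Ptger3, -3.73 for Phykpl and -4.58 for Ccdc40. The arrays of the codes differ in range, which was not tested as a source of these differences.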

How the results depend on the processing

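Alternatives covered the spread (all 26 arrays, only the 6 compared, trended and robust variances), the probe set of a gene, dim genes, quantile or interquartile scaling, array weights, a 2-fold test and leaving out each array. The count of calls stayed within 1.5 times of 3338 except with array weights (5469), against 2-fold (250) and in the fits that left out 1 array, which called 1067 to 3543 genes. The code difference called 1567 genes, 2596 with array weights, and 369 to 1977 without 1 array. Of 141 named genes called, 0 reversed in direction. The number still called was 118 with only the 6 arrays, 132 with mean probe sets, 129 with a common interquartile range, 48 against 2-fold, 81 without tumor 1 and 86 without tumor 2. With only the 6 arrays the calls lost were Myh11, Kcnj8, Aqp4, Csf3r, Dlx1, Reln, Cdk1, Hmgcs1, Asns, Fosb, Etv5 and Spry2. Nes, Sox21, Aipl1, Ndufb5, Ndufa1, Pfkp, Egln1, Phlda3, Sesn1, Sesn2 and Thy1 were lost there too, and limma adjusted p-values ran from 0.0502 (Phlda3) to 0.181 (Pfkp). With mean probe sets the calls lost were Myh11, Aqp4, Psmb9, H2-Ab1, Fancm, Spry2, Egln1, Sesn1 and Slc17a6, at adjusted p-values of 0.0503 to 0.402. Of the list medians under the alternatives 476 moved by less than the neurosphere spread, 55 moved by more and 11 changed sign. With a common interquartile range, which moved the median of all genes to -0.29, the medians were -0.18 for lymphocytes, -0.15 for neutrophils, -0.17 for Group 3 genes and -0.18 for p53 targets. The neural stem median was -0.12 with mean probe sets, -0.50 with array weights, -0.84 without neurosphere 1 and -0.006 without neurosphere 4, within a range of -0.84 to 0.79 over the fits without 1 array. The p53 target median was -0.082 without tumor 2, -0.077 without neurosphere 3 and -0.086 without neurosphere 4, within a range of -0.086 to 0.18. The cause of these changes was not tested. No paired analysis was possible because the labels carry no replicate numbers. Only 2 tumors limit every result.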
